A study of Caenorhabditis elegans with 2 samples.

Results

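EFL-1 binding was examined at 10 genes of the DNA replication fork in Caenorhabditis elegans, taken by name from the 19973 protein-coding genes of the nuclear chromosomes. They were the GINS subunit genes psf-1, psf-2 and psf-3, the GINS partner gene ctf-4, the single-strand binding protein genes rpa-1 and rpa-2, the ribonucleotide reductase genes rnr-1 and rnr-2, and the flap and fork nuclease genes crn-1 and dna-2. EFL-1 is a worm transcription factor of the E2F family, and ChIP-seq with an antibody to it had been done on whole L1 larvae, the first larval stage, with the sexes mixed. Both samples, biological replicates 2 and 3, were of strain MT10430, which carries the n745 mutation of lin-35, the worm's gene for a retinoblastoma-family pocket protein. There was no group with intact lin-35, so nothing below compares genotypes, and whole animals do not tell which cells carried the binding. The files were peak lists without read totals, so the depth of the libraries is unknown and values carry no counting interval.

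A replication fork is opened by the CMG helicase, in which CDC-45 and the GINS complex join the MCM ring. CTF-4, in yeast, ties GINS to DNA polymerase alpha, and replication protein A (RPA) coats the single strands that the helicase exposes. Ribonucleotide reductase makes the deoxyribonucleotides that the polymerases use. The flap nuclease CRN-1 (the worm FEN1) and the nuclease-helicase DNA-2 trim the 5' flaps of Okazaki fragments on the lagging strand. E2F factors are known in animals as regulators of S-phase genes, and pocket proteins hold them in a repressing state. In L1 larvae most somatic cells have left the cell cycle, while blast cells divide again once the animal feeds.

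The DNA under the summits is shown for 4 of these genes: ctf-4 and rnr-1, which had the strongest peaks, rpa-1, which had the weakest of the members' peaks in the IDR list, and rnr-2, which fell just outside that list. Each run is read 5' to 3' on the gene's own strand from the RefSeq copy of the WBcel235 (ce11) assembly and spans up to 100 bp to each side of the summit, cut short where an annotated UTR began. Capitals mark E2F-type patterns on either strand, as TTTCCCGC, TTTCGCGC, TTTGCCGC or TTTGGCGC where 8 letters are in capitals, and as the same patterns without their first T where 7 are. The rnr-1 run lies at chrIII:9228291-9228491 on the minus strand and the rnr-2 run at chrIII:4094682-4094882 on the minus strand. The rpa-1 run lies at chrII:7664370-7664570 on the plus strand and the ctf-4 run at chrV:10965578-10965718 on the minus strand. The summit is the middle base in the first 3 runs and base 41 in the ctf-4 run.
rnr-1: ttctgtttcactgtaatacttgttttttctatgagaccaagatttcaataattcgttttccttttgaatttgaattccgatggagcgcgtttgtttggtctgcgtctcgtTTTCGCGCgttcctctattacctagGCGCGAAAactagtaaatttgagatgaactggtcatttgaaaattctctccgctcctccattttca
rnr-2: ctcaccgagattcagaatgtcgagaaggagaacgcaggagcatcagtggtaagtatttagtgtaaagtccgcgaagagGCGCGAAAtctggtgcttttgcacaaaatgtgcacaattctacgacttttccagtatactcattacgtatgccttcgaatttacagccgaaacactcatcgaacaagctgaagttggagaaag
rpa-1: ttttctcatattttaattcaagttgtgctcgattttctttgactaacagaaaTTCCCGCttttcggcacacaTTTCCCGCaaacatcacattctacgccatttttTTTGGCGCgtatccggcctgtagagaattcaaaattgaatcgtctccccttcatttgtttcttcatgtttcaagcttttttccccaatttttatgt
ctf-4: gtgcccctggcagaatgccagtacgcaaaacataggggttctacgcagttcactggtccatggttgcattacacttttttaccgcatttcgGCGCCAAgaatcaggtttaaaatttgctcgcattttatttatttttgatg
In rnr-1 the pattern TTTCGCGC stood on both strands, centred 13.5 and 38.5 bp downstream of the summit. In rpa-1 TTTCCCGC was centred at -24.5 bp and TTTGGCGC at 8.5 bp from the summit, with a further 7-letter TTCCCGC at -45 bp. In rnr-2 TTTCGCGC stood on the opposite strand, at -18.5 bp from the joint summit.

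EFL-1 was bound at 9 of the 10 genes, rnr-2 being the exception. A gene was counted as bound when the summit of a peak in the authors' IDR list (4534 peaks, where IDR measures how well the replicates agree in rank) fell inside a window that began 1000 bp before an annotated 5' end and closed 500 bp after it. By this rule 3922 of all protein-coding genes were bound, which is 19.6%. The members were chosen with earlier results of these data known, so their count beside this share is a description. The median peak of the 9 bound members stood at percentile 78.7 of the IDR list by signal value, against 60.2 over all 3922 bound genes. The members spread widely, from percentile 35.4 at rpa-1 to 98.7 at ctf-4. Within the 100 strongest peaks lay those of 2 members, ctf-4 and rnr-1, and of 3.16% of all bound genes.

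**Figure D1:**
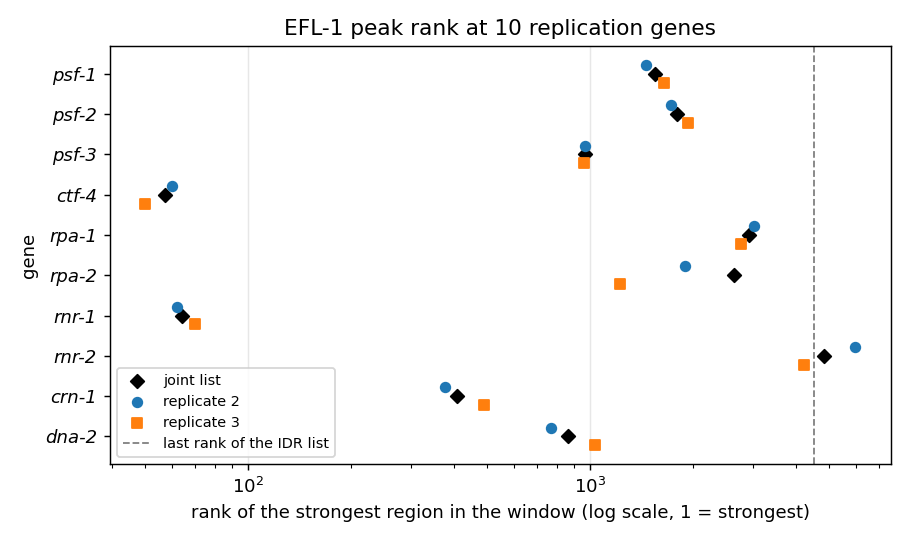
Rank of the strongest region in each gene's window (log axis, 1 is the strongest) in the joint list and in the lists of replicates 2 and 3. The dashed line is the last rank of the IDR list, 4534, and rnr-2 is the gene whose ranks lie on both sides of it.

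Among the bound members the GINS genes had peaks of middling rank, at percentiles 60.3 to 78.7 of the IDR list. The strongest was psf-3, which ranked 966 with a signal value of 307. This value is the authors' own, and it runs over the IDR list from 46.3 to 9789 with a median of 124.8. Its summit stood at -116 bp from the 5' end, at chromosome I, 534339, and no other gene had that summit in its window. The replicates placed psf-3 at ranks 970 and 965, with signal values of 181 in replicate 2 and 123 in replicate 3. At psf-1 the peak ranked 1553 (signal value 194, chromosome II, 9968430 to 9968603, summit at -162 bp), and replicates 2 and 3 gave ranks 1461 and 1654 with signal values of 124 and 72.2. That summit also fell inside the non-coding genes R53.9 and R53.11 and stood at -462 bp from the 5' end of the divergent gene R53.4. The psf-2 peak was the weakest of the 3, at rank 1801 (signal value 167, chromosome I, 15052610 to 15052796), and ranked 1725 and 1942 in the replicates, with signal values of 106 and 59.6. Its summit stood at -307 bp from psf-2 and at -283 bp from zipt-1, a zinc transporter family gene on the other strand, so that by distance it was nearer to zipt-1. Replicate 3 also held a weaker region that overlapped its first (rank 4779, signal value 17.9), with the summit at -108 bp from psf-2. Neither the joint list nor replicate 2 had a summit there. The fourth GINS gene, sld-5, had no IDR summit in its window, and its strongest region in the joint list ranked 9335 of 21875.

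The ctf-4 peak was among the 100 strongest IDR peaks, and it stood in a divergent promoter. It ranked 57 with a signal value of 1978 (chromosome V, 10965513 to 10965845), and replicates 2 and 3 ranked it 60 and 50 with signal values of 1154 and 828. The summit stood at -139 bp from the 5' end of ctf-4, at the same base in both replicates. The gap between ctf-4 and eef-1G, the gene for a subunit of translation elongation factor 1, was 179 bp. The summit stood at -295 to -41 bp from the 5 annotated 5' ends of eef-1G within reach, so position alone does not assign it to either gene. The 141 bases shown above hold no 8-letter E2F pattern and a single 7-letter TTGGCGC, on the strand opposite to ctf-4 and 54 bp downstream of the summit.

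The RPA genes carried the weakest peaks of the 9 bound members in the IDR list and in replicate 2, but in replicate 3 rpa-2 ranked above psf-1 and psf-2. At rpa-1, which encodes the large subunit, the peak ranked 2931 (signal value 90.2, chromosome II, 7664312 to 7664627), with ranks of 3026 and 2773 and signal values of 52.8 and 38.0 in the replicates. Its summit stood at -112 bp from rpa-1 and at -716 bp from the divergent gene F18A1.7. This lowest of the members' IDR peaks had the most E2F-type patterns under it, 3 against 2 at rnr-1, whose peak ranked 64. The lead of rpa-1 came from the shorter TTCCCGC at -45 bp, which lacks the first T. By the full-length patterns alone rpa-1 and rnr-1 held the same number, so no relation of pattern number to peak strength is drawn.

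At rpa-2, the gene for the second RPA subunit, the lists disagreed on where the binding was. The joint list put the summit at -801 bp from the 5' end (chromosome I, 4769333 to 4769648, rank 2641, signal value 104), replicate 2 put it at -744 bp (rank 1905, signal value 94.5) and replicate 3 at -619 bp (rank 1229, signal value 96.1). The replicate summits were 125 bp apart, a gap reached or passed at 1.55% of the 4525 IDR peaks that overlapped a region in each replicate's list, where the median gap was 13 bp. At the other 9 members the gap was 15 bp or less, as at 56.2% of those IDR peaks. The joint signal value was usually close to the sum of the replicates' values, at a median of 100.2% of that sum over the IDR peaks, with 94.3% and 106.5% at the 5th and 95th percentiles. At rpa-2 it was 54.5%, and at the other 9 members it ran from 98.7% at psf-1 to 103% at rnr-2. A second joint region, outside the IDR list at rank 7619, overlapped the first and had its summit at -568 bp. By replicate 2 alone the rpa-2 peak stood at percentile 58.0 and by replicate 3 alone at 72.9, against 41.8 in the IDR list. The window of the lincRNA gene M04F3.7 held the joint summit too, at -428 bp from its 5' end. The nearest coding gene upstream of rpa-2 was the divergent kin-35, 4978 bp away.

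**Figure D2:**
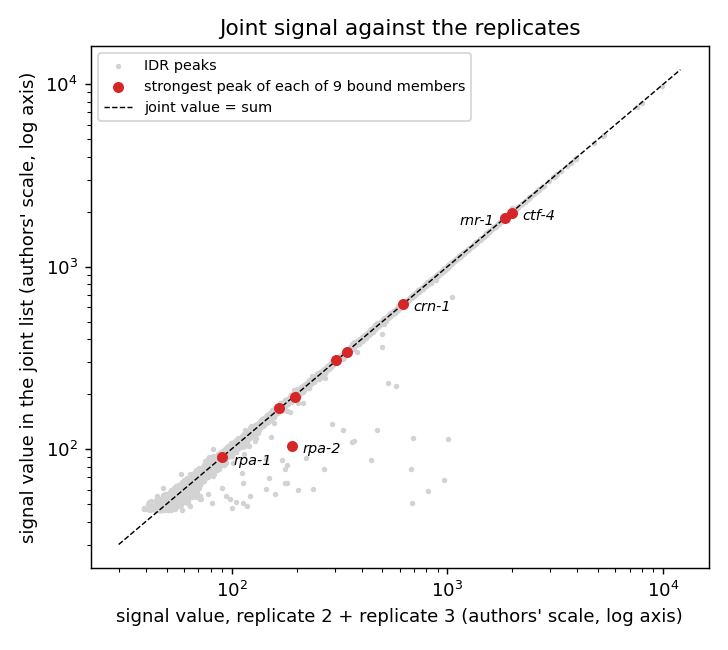
Signal value of IDR peaks in the joint list against the sum of the values of the strongest overlapping regions in replicates 2 and 3, on log axes and the authors' scale, with 9 bound members in red. Members lie close to the line of equality except rpa-2, whose joint value of 104 is 54.5% of the sum.

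The subunit genes of ribonucleotide reductase stood at opposite ends. The large subunit gene rnr-1 had a peak of rank 64 (signal value 1855, chromosome III, 9228216 to 9228607), ranked 62 and 70 in replicates 2 and 3 with signal values of 1142 and 714. Its summit stood at -141 bp from the inner of its 2 annotated 5' ends and at +407 bp from the outer, in an intron of the longer transcript. RefSeq gives the inner end alone. No other gene's window held this summit, whereas that of ctf-4, the other member among the 100 strongest peaks, was shared.

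At rnr-2, the small subunit gene, the signal fell just short of the IDR list. Its strongest joint region (chromosome III, 4094624 to 4094939) ranked 4847 with a signal value of 41.9, where the last IDR peak had 46.3. The deposited -log10 q value of this region was 3.99, the same as that of all IDR peaks. Replicate 3 ranked it 4234 and replicate 2 ranked it 5970, with signal values of 20.9 and 19.8. If each replicate's 4534 strongest regions are taken by themselves, replicate 3 therefore gives 10 of 10 members as bound (background 19.4%) and replicate 2 gives 9 (background 19.6%). Measured from the nearest 5' end, rnr-2 was the member with its summit downstream, at +139 bp in the joint list and at +124 and +122 bp in the replicates, within an intron. The pattern TTTCGCGC lay there on the opposite strand, centred at 120.5 bp past the 5' end. The nearest IDR summit upstream lay at -1701 bp (rank 2554), in no gene's window.

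The nuclease genes ranked above the GINS genes in the joint list and in replicate 2, but in replicate 3 psf-3 ranked above dna-2. At crn-1 the peak ranked 410 (signal value 624, chromosome I, 3481444 to 3481703), with replicate ranks of 376 and 489 and signal values of 401 and 220.4. Its summit stood at -434 bp from crn-1, in the annotated 3' UTR of Y47G6A.9, a gene in the same direction that ends 281 bp before crn-1 begins. No other 5' end had it in its window. At dna-2 the peak ranked 865 (signal value 342, chromosome II, 11778139 to 11778348), with replicate ranks of 771 and 1039 and signal values of 229.8 and 114.5. The summit stood at -193 bp from dna-2 and at -294 bp from the divergent gene patr-1, whose product is known from yeast and animals as an mRNA decapping activator.

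**Figure D3:**
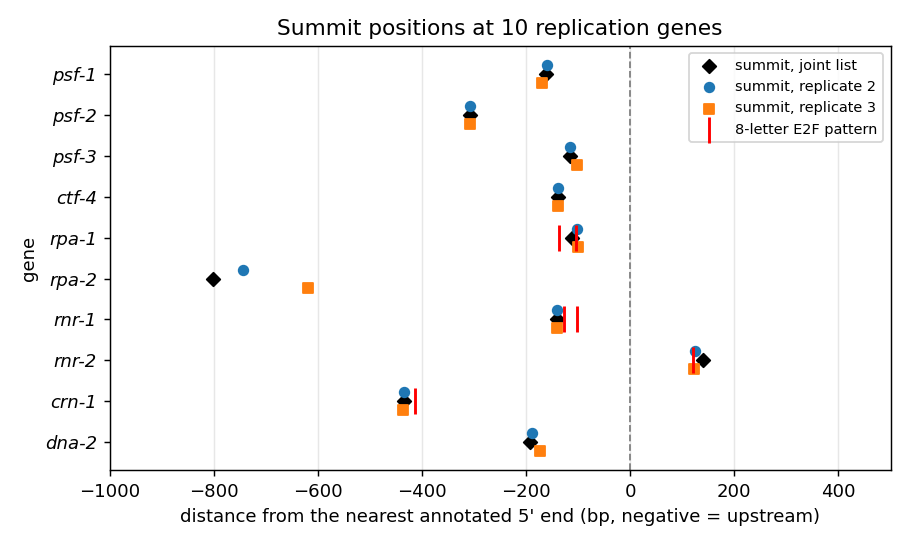
Position of the strongest summit in each gene's window from the nearest annotated 5' end, in bp, negative upstream, in the joint list and in replicates 2 and 3. Red bars are 8-letter E2F patterns within 100 bp of the joint summit. Of the summits, 6 of the joint list lie at -200 to -100 bp, rpa-2 has its 3 summits apart, and rnr-2 lies downstream.

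Summits sat in a narrow range upstream of most members. Of the 9 bound members 6 had the summit at -200 to -100 bp from the nearest 5' end, against 25.4% of all bound genes and 17 of 38 other bound replication genes. This range was not part of the plan, so the count is a description. The summits of psf-2, crn-1 and rpa-2 lay outside it, at -307, -434 and -801 bp. The median position was -162 bp for the members, -149.5 bp for the other replication genes and -215 bp for all bound genes. In 5 of the 9 members the peak was shared with another protein-coding gene, and of all bound genes 51.3% had a strongest peak so shared, whatever the strand. The 5 genes that shared the members' peaks were all on the other strand. At rpa-2 it was shared with a non-coding gene, and at psf-3, rnr-1 and crn-1 with none. Annotated 5' ends in the worm are often trans-splice sites, so these distances need not be those from the transcription start.

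The count depended on the window and on how shared peaks were treated. Within 300 bp of a 5' end 6 members were bound (12.9% of all genes), without psf-2, rpa-2 and crn-1 as well as rnr-2. With each summit given to the nearest 5' end alone, 7 members were bound (14.7% of all genes), since the ctf-4 peak went to eef-1G and the psf-2 peak to zipt-1. Among the 2267 strongest IDR peaks 7 members had one (11.8% of all genes), without rpa-1, rpa-2 and rnr-2.

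E2F-type sequence was present under 3 of the 9 members' IDR summits. The 8-letter patterns occurred within 100 bp of the summit at rpa-1, rnr-1 and crn-1, where TTTCCCGC lay 21.5 bp downstream of the summit. Of all 4534 IDR summit windows of that length 437 held 1 or more, which is 9.64%. The share was 3.61% in windows centred 500 bp to each side and 3.59% in windows centred 150 bp upstream of 29314 annotated 5' ends. With the 7-letter patterns psf-3 and ctf-4 were added, giving 5 of 9, against 18.7% of all IDR windows and 7.16% of flanking windows. Among the other replication genes 20 of 38 windows held an 8-letter pattern and 24 of 38 a 7-letter one. At the 100 strongest IDR peaks the shares were above those of the whole list, at 24% with 8 letters and 46% with 7. Neither kind occurred within 100 bp of the joint summits of psf-1, psf-2, rpa-2 and dna-2. The hexamers TTTGAA and TTCGAA, forms of the CHR element that LIN-54 and its relatives recognise, were found in 4 of the 9 windows (psf-1, rpa-1, rnr-1 and dna-2) and in 44.7% of all IDR windows. Their share was higher away from the summits, at 53.3% of flanking windows and 55.2% of windows upstream of 5' ends. Of the other replication genes 32 of 38 windows held a hexamer, and of the 100 strongest IDR peaks 76%. A match of letters is not a mapped site, and no match says nothing about how EFL-1 reached the DNA.

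Most other genes of DNA replication and nucleotide supply were bound as well. Of 47 such genes 38 had an IDR summit in the window, against 19.6% of all protein-coding genes. Their median percentile was 82.6, against 60.2 over all bound genes. The list was chosen with earlier results of these data known, so the count and the percentile are descriptions. Licensing genes reached 7 of 8, with cdt-1, which loads the MCM helicase, strongest (rank 231). The MCM genes and helicase partners reached 7 of 8, led by the helicase subunit gene mcm-7 (rank 216), and the origin firing genes 3 of 3, led by sld-2 (rank 564). Primase and polymerase genes reached 6 of 7, with the primase gene pri-2 at rank 56. Clamp and clamp loader genes reached 4 of 6, with the sliding clamp gene pcn-1 at rank 50, and fork protection genes 2 of 2, with tim-1 at rank 93. Ligation and topology genes reached 3 of 4, with the exonuclease gene exo-1 at rank 1524. Of the nucleotide supply genes 5 of 7 were bound, led by the pyrimidine synthesis gene umps-1 (rank 53). The mitochondrial single-strand binding gene mtss-1 was bound at rank 2403, and rpa-4, an RPA relative, was not. Some of these peaks, among them those of mcm-7, sld-2, pri-2 and tim-1, were shared with another protein-coding gene. With each summit given to the nearest 5' end alone, 31 of the 47 genes were bound, against 14.7% of all genes.

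The 9 unbound genes were sld-5, rpa-4, orc-2, pole-2, rfc-3, ctf-18, top-1, dhfr-1 and adss-1. The dihydrofolate reductase gene dhfr-1 resembled rnr-2 in falling just below the list, at joint rank 4787 with a signal value of 42.8, ranks of 4494 in replicate 2 and 7370 in replicate 3. Next came the clamp loader gene ctf-18 at joint rank 6433. The polymerase epsilon subunit gene pole-2 was at joint rank 13615, while pole-1, for the catalytic subunit, was at rank 68. No region of any of the 4 lists had its summit in the window of the topoisomerase gene top-1.

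**Figure D4:**
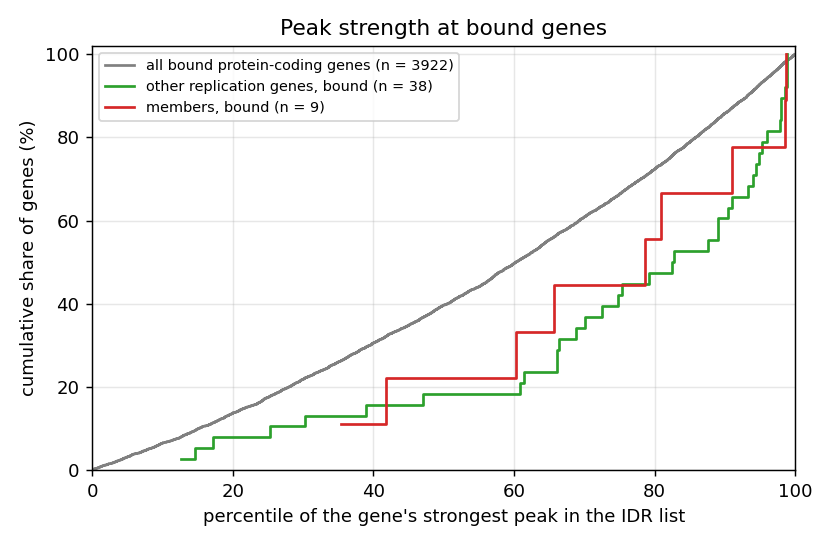
Cumulative share of genes (per cent) by the percentile of their strongest peak in the IDR list, for all 3922 bound protein-coding genes, 38 other bound replication genes and 9 bound members. The members' curve starts at percentile 35.4 and its median is 78.7, to the right of the curve of all bound genes, whose median is 60.2.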

How the data were processed

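EFL-1 binding was taken from deposited ce11 peak lists in narrowPeak form. The deposited descriptions say that the replicate lists were made from 1 replicate's alignments each, the joint list from the alignments of both, all against a control, and that the IDR list was drawn from the joint one. Signal values were taken as the authors gave them and ranked peaks within a list. Across lists they were used once, to set each joint value beside the sum of the replicates' values. The deposited −log10 q value had 1 value over all IDR peaks and ranked none. The sources used here do not name the peak caller, the IDR threshold or the depth. The 4534 IDR peaks were the 4534 strongest of 21875 joint regions. The lists of replicates 2 and 3 held 25572 and 27203 regions, and the ce10 lists were not used.

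Genes and 5' ends of protein-coding transcripts (29314 in all) came from Ensembl release 115 and sequence from the RefSeq assembly, both WBcel235, whose chromosomes held every peak. A percentile is the share of the list's 4534 peaks with a higher rank number. With 1 group and no control samples no test was made. Of 50 other replication symbols 47 matched, pold-1 through its RefSeq locus name, and cdc-45, sld-3 and rnr-3 did not. Genes named are the members, those sharing their peaks, the strongest gene of each role and every unbound one, and pole-1 was named after its values were seen. Nearest upstream genes were named for position. Members and lists were chosen with earlier results of these data known. Peak assignment was tested on planted summits. The labels call the samples biological replicates. Python 3.11.15, pandas 2.3.3 and numpy 2.4.6 were used.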

Additional observations from a re-analysis of the deposited data

How the results depend on the processing

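The count of bound members was 9 and ran from 6 (within 300 bp of the 5' end) to 10 (2000 bp upstream, joint regions with a −log10 q value over 2, and replicate 3 by itself). Any base of the peak in the window, and RefSeq 5' ends, each gave 9. The share of all protein-coding genes moved too, from 19.6% by the main rule to 12.9% within 300 bp. It was 24.3% with 2000 bp upstream, 24.0% with the joint regions and 19.4% with replicate 3 by itself. Any base of the peak gave 20.5% and RefSeq 5' ends 19.4%. The other replication genes ran from 31 (2267 strongest peaks, and nearest 5' end alone) to 42 (2000 bp upstream), against 38. For all protein-coding genes these settings gave 11.8%, 14.7% and 24.3%, against 19.6%. With each replicate left out in turn the members' counts were 9 to 10 and the other genes' 37 to 39. All protein-coding genes then stood at 19.4% to 19.6%. The members' median percentile was 75.0 without replicate 2, where rnr-2 enters, and 78.6 without replicate 3, against 78.7. Over the 9 members bound in the IDR list, E2F windows numbered 3 with 50 or 150 bp to each side and at either replicate's summits, and 5 with 7-letter patterns, which by construction match more sequence. Outside these 9, rnr-2 also held an 8-letter pattern within 100 bp of its summit in each replicate. No paired analysis was possible because the series holds 1 group. Depth is unknown, so a region's absence cannot be told apart from too few reads.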

Other observations

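A 6-letter sequence outside the E2F patterns recurred in the summit windows of some members. It was noticed by reading summit windows of the members themselves, so its count is a description and was not tested. A count in the windows a sequence was picked from cannot be weighed against the other shares. CGAGAC, on either strand, lay within 100 bp of the joint summit at psf-1, psf-2, rnr-1 and dna-2, 4 of the 9 bound members. Its centre stood at -0.5 bp from the summit at psf-1, 5.5 bp at rnr-1, -24.5 bp at dna-2 and -97.5 bp at psf-2. Over all IDR summit windows the share was 15.1%, against 6.99% of windows centred 500 bp to each side and 5.99% of windows centred 150 bp upstream of annotated 5' ends. Of the other replication genes 3 of 38 windows held it, and of the 100 strongest IDR peaks 17%. The rnr-1 window held E2F patterns as well.

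The psf-1 and dna-2 stretches are shown with CGAGAC in capitals, 40 bp to each side of the summit (base 41), read 5' to 3' on the plus strand of chromosome II in WBcel235, at chrII:9968471-9968551 and chrII:11778197-11778277.
psf-1: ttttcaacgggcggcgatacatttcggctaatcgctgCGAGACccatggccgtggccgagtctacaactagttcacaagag
dna-2: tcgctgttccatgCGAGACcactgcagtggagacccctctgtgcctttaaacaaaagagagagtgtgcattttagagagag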
